A study of Homo sapiens with 2 samples.

Results

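The loci described here have their midpoint in a 3′-UTR and carry antisense GRO-seq signal. They extend beyond the length of a single Alu repeat and have no annotated gene on the other strand. They were selected by length, position and annotation: at least 400 nt long, the only locus of their transcript in the authors' deposited table, a midpoint past the coding sequence in GENCODE 44, no opposite-strand GENCODE 44 gene over the exonic bases of the locus, and a gene symbol that does not begin with ZNF. The logASR, P and q of a locus were not used, although every locus of the table had been detected by its antisense signal. Of the 2016 loci, 1916 could be assessed with GENCODE 44, since 43 were on transcripts absent from that release and 57 ended past the end of the transcript. Among the 1916, 353 met these criteria, each in a different gene. Of the loci left out, 653 met all of them except for the length.

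The libraries were 2 biological replicates of 1 group, MDA-MB-231 cells, a human line of triple-negative breast cancer, each made by GRO-seq from 10000000 cells. The methods of the locus detection name MDA-Par, the parental line, for these reads, whereas the assay's own methods name MDA-Par or its metastatic derivative MDA-LM2 and a figure legend names MDA-LM2. The authors compared antisense with sense reads in each locus and in the rest of its transcript, and the natural log of this odds ratio is the logASR. The table gives 1 logASR per locus for both libraries together and no value per replicate, so the spread between replicates and the depth of each library are unknown. The standard errors below were derived from logASR and P and cover counting error only. The table holds no expression values against which the cell line could be checked.

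GRO-seq extends RNA in isolated nuclei with a labelled nucleotide, so that reads mark engaged polymerases and their strand. The 3′-UTR is the part of an mRNA between the stop codon and the poly(A) tail, where microRNAs and RNA-binding proteins act, and its genomic sequence is also where polymerases of neighbouring genes on the other strand may arrive. Alu elements are primate repeats that descend from 7SL RNA, the RNA of the signal recognition particle, and are common in 3′-UTRs. A pair of Alu elements in opposite orientations can fold into double-stranded RNA, which is edited by ADAR enzymes and is sensed by innate immune receptors.

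The loci were read at 2 levels of sequence. Alu-like sequence is what aligned to 7SL RNA over at least 30 nt, and aligned pieces of 1 orientation at most 60 nt apart were joined into a unit. A unit is thus an aligned stretch, and the number of Alu elements behind the units was not determined. A repeated 24-mer is a 24-nt word found at least 10 times in hg38, on either strand. The end reads matter because the study trimmed each locus to its first and last read. The 24 nt at either end of a locus therefore give part of the read that set this end. Their copies were counted in hg38, whereas the authors mapped reads to transcripts, so the copy number tells how many places of the genome carry these 24 nt and not how often the read mapped. The next lines give such end sequences, written 5′ to 3′ on the antisense strand, with the outermost base of the locus in capitals. RIGI, SBNO2, NDC1 and PDCD11 represent loci without a repeated 24-mer, and AGO3, MDM4 and NNT loci with repeated 24-mers.
RIGI, 5′ end: Ccataccacacgttgctacaccag
RIGI, 3′ end: agtactatgagctctgttggcctA
SBNO2, 5′ end: Gtttgggcccactgagcccttgtg
NDC1, 5′ end: Atttgatctaatgaagatgaatgg
PDCD11, 5′ end: Gtaccagtgaggctgaggctgaag
AGO3, 5′ end: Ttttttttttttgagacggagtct
MDM4, 5′ end: Aggtgtgtggatcatgaggtcagg
NNT, 5′ end: Tctgttttctttttttttttaatt
NNT, 3′ end: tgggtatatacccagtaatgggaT

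The end sequences of RIGI, SBNO2, NDC1 and PDCD11 each occurred at 1 position in hg38. The 5′ end sequence of the AGO3 locus, a run of T that goes over into Alu-like sequence, had 41615 copies. In MDM4 the 5′ end sequence had 19 copies, and in NNT the 5′ end sequence had 2 and the 3′ end sequence 18876. Over all 353 loci, both end sequences occurred once in 72, exactly 1 of them did in 136, and both had at least 10 copies in 94. Among the 653 shorter loci, both end sequences occurred once in 70, or 10.7%, against 20.4% of the longer loci. In the remaining 281 loci at least 1 end sequence did not occur exactly once. How the reads of repeated sequence were distributed among copies is not stated, and the part of such reads in the logASR was not tested.

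Their length went from 400 to 2772 nt around a median of 535 nt, and 133 of them were under 500 nt while 33 reached 1000 nt. At the threshold, CUL1 and HACD2 were included at 400 nt, with a logASR of 2.16 and 3.83, and RNF152 was left out at 399 nt, with a logASR of 1.74. They covered a median of 17.6% of their 3′-UTR, lay wholly within it in 336 cases, and had their midpoint at a median of 54.7% of the way from the stop codon to the transcript end.

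Repeats covered more of these loci than of the 3′-UTR around them. Alu-like sequence was present in 292 of the 353 loci, or 82.7%, against 85.6% of the shorter loci. Repeated 24-mers covered a median of 64.1% of a locus and 7.17% of the remaining 3′-UTR of the same transcript, and the locus was the more repeated of these in 314 of 353. In the shorter loci they covered a median of 97.8%. A locus above 400 nt thus usually consisted of repeats and of sequence between or beside them: the longest stretch free of repeated 24-mers had a median of 161 nt, compared with 5 nt in the shorter loci. It stayed under 100 nt in 124 loci and reached 400 nt in 54. The shorter loci have less room for such a stretch, so the length criterion bears on this comparison.

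**Figure D1:**
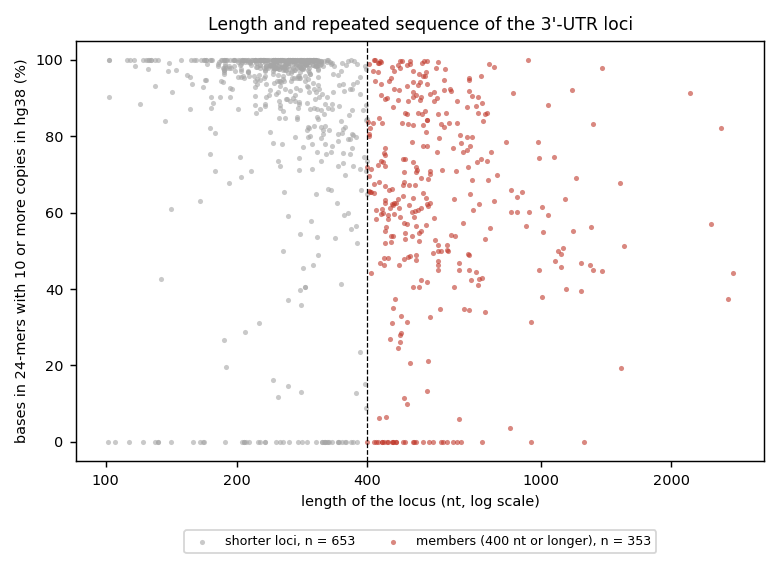
Length of each locus in nt on a log scale (x axis) against the percent of its bases in 24-mers with at least 10 copies in hg38 (y axis), for the 353 loci of at least 400 nt (red) and the 653 shorter loci that meet the other criteria (grey), 1 point per locus; the dashed line marks 400 nt. The shorter loci crowd at the top with a median of 97.8%, the longer loci spread around a median of 64.1%, and a row of points at 0 holds 48 shorter and 31 longer loci.

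Most loci held 1 or more Alu-like units. There were 136 loci with 1 unit, 115 with 2, 29 with 3, 12 with 4 or 5, and 61 with none. Units in the orientation of the mRNA occurred in 209 loci, inverted units in 135, and both orientations together in 52, which is 14.7% of the loci, compared with 1 of the 653 shorter loci. A longer locus has room for more units, so the length criterion bears on this count. The median logASR was 2.90 over all loci.

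The longest loci were in AGO3, SF3B3, TRIM56, APOBEC3F and CFLAR. The AGO3 locus, in the gene of an Argonaute protein that binds microRNAs, spans 2772 nt (chr1:36065066-36067837) and holds 5 Alu-like units, all in the orientation of the mRNA, and a repeat-free stretch of 841 nt. Its logASR was 1.57 with a standard error of 0.199. SF3B3 encodes a subunit of the U2 snRNP, and its locus of 2693 nt (chr16:70574328-70577020) has 1 unit in mRNA orientation near its antisense 5′ end and 3 inverted units towards the other end. The logASR of SF3B3 was 5.17 with a standard error of 1.02, and the smallest of the 4 read counts behind it was at most 3. TRIM56, a ubiquitin ligase of antiviral signalling, had a locus of 2593 nt with a logASR of 3.09 and a standard error of 0.162. CFLAR, which encodes the caspase-8 inhibitor FLIP, had one of 2206 nt with a logASR of 1.88 and a standard error of 0.148, 91.4% of it in repeated 24-mers although only 95 nt aligned to 7SL RNA. The long loci therefore differed in composition, from 37.4% repeated bases in SF3B3 to 91.4% in CFLAR.

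The largest number of units, 5, was also reached in GPI, SUMO2 and APOBEC3F. GPI encodes glucose-6-phosphate isomerase of glycolysis, and its 5 inverted units lie along 1319 nt, with the largest 272 nt long. SUMO2 encodes a ubiquitin-like modifier, and its 5 inverted units lie along 1521 nt. The logASR was 4.48 in GPI with a standard error of 0.730, and 3.99 in SUMO2 with a standard error of 0.537. The value of APOBEC3F, a cytidine deaminase that restricts retroviruses, cannot be used because its standard error is far above 2.

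**Figure D2:**
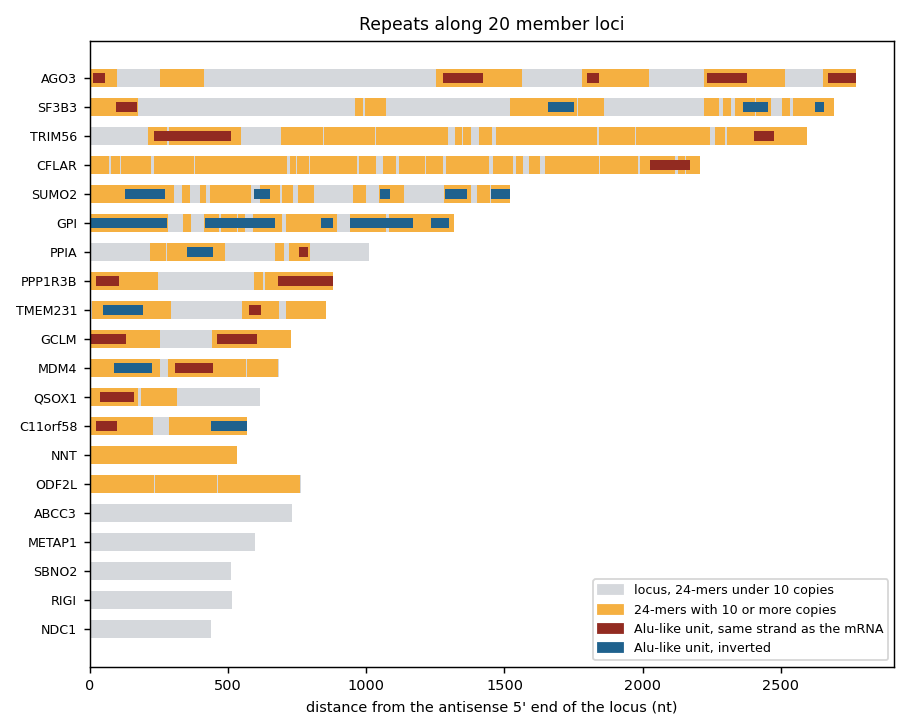
Maps of 20 loci, drawn to scale from the antisense 5′ end (x axis, nt), with bases in 24-mers of at least 10 copies in orange, other bases in grey, and narrow bars for Alu-like units in mRNA orientation (dark red) and inverted (blue). The units of AGO3 all have mRNA orientation and those of GPI and SUMO2 are all inverted, NNT and ODF2L are repeated without an Alu-like unit, and the lowest 5 loci hold no repeated 24-mer.

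Inside an inverted Alu element, the antisense strand carries the sequence from which RNA polymerase III can initiate, the A and B boxes. The core of the B box, GTTCGAGAC, was searched on both strands. It was present on the antisense strand of 24 loci, or 6.80%, and on the mRNA strand of 36, or 10.2%, whereas 2.03% and 2.43% of 11706 windows of 500 nt along the 3′-UTRs of all 3′-UTR loci held it on these strands. These windows include the loci themselves. Most loci are longer than a window, with a median of 535 nt and a maximum of 2772 nt. Per kb, the shorter loci held more matches, 0.259 on the antisense and 0.359 on the mRNA strand against 0.116 and 0.161 in the 353 loci. A match shows only that these letters are present. Runs of at least 9 T on the mRNA strand, which read as A on the antisense strand, were present in 95 loci, and runs of at least 9 A in 137.

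All of these loci had a positive logASR, as did nearly all of the table, which was built on antisense enrichment. The logASR ranged from 0.503 to 22.3, and its median was 2.84 over the 339 loci whose standard error was no more than 2. All 339 had a logASR above 0.5 together with a q below 0.01, the thresholds the study set for GRO-seq, as did 97.4% of all 2016 loci. The 14 loci that missed them had a standard error above 2, so their logASR of 17.5 to 22.3 has no usable precision. They lie in INMT, TNFRSF10A, ZBTB24, EIF2S3, TCTA, APOBEC3F, HP1BP3, ADI1, CHM, SEMA4F, GOLGA2, SLC25A37, GALNT4 and TADA2A. A logASR above 1 with a q below 1e-05 was reached by 233 of the 353 loci, or 66.0%, close to the 60.9% of all loci. When the authors' q was replaced by a Bonferroni correction, 144 were past these values.

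Among the loci with a q below 1e-05, the largest logASR values were those of PPP1R3B, TNFAIP2, QSOX1, TMEM231, PPIA, NNT, C11orf58 and RAD23B. QSOX1 encodes a sulfhydryl oxidase that forms disulfide bonds, and its locus of 614 nt (chr1:180202492-180203105) had a logASR of 6.19 with a standard error of 0.407, an odds ratio of 489. Its antisense 3′ end sequence occurs once in hg38, its 5′ end sequence 31 times, and none of the remaining 3′-UTR is repeated. NNT, the mitochondrial transhydrogenase that supplies NADPH, had a logASR of 5.74 with a standard error of 0.516, and repeated 24-mers covered 99.2% of its 533 nt without any Alu-like sequence. RAD23B, which recognises DNA lesions together with XPC, reached 5.62 with a standard error of 0.706. PPP1R3B, a glycogen-targeting subunit of protein phosphatase 1, had the largest value, 7.40, and TNFAIP2, a gene induced by tumour necrosis factor, had 6.84. The values of PPP1R3B, TNFAIP2, TMEM231, PPIA and C11orf58 each rest on a smallest count of at most 3 reads, and their 95% intervals overlap that of QSOX1, from 5.39 to 6.99.

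The smallest logASR values with a q below 1e-05 were 0.503 in SULT1B1, 1.21 in ODF2L, 1.34 in SYAP1 and 1.35 in ORAI2. SULT1B1 encodes a sulfotransferase, and its standard error was 0.103 because at least 95 reads stood behind each of its 4 counts. Repeated 24-mers covered 97.0% of the SULT1B1 locus and 98.8% of that in ODF2L, and neither held Alu-like sequence. ORAI2, a store-operated calcium channel subunit, had a locus 90.6% repeated with 2 units in mRNA orientation. Across the 339 loci, which share their libraries, Spearman's rho of the logASR was 0.02 with length, -0.12 with the repeated share and 0.27 with the share of the 3′-UTR covered.

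**Figure D3:**
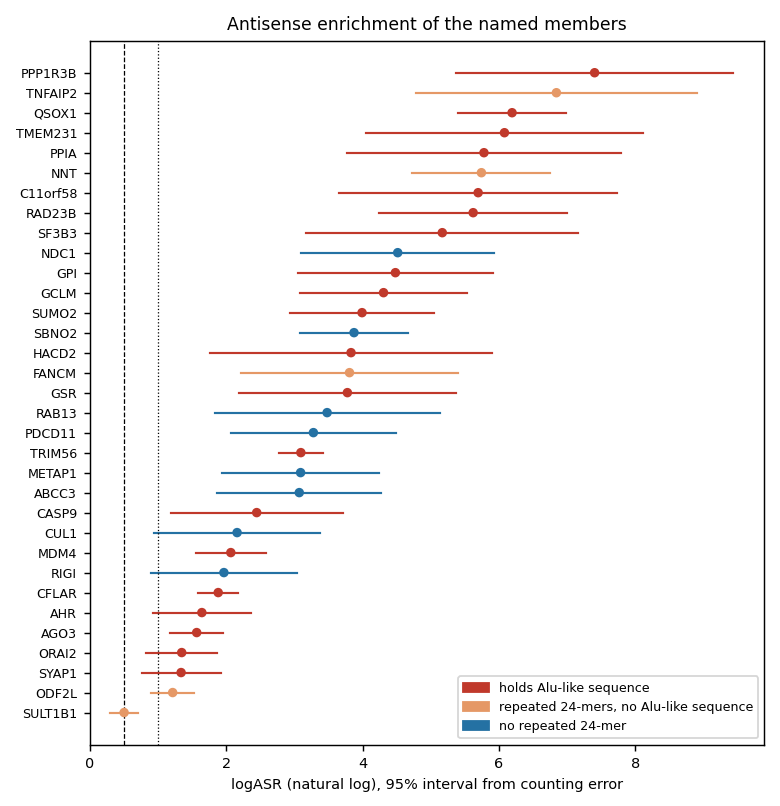
LogASR (x axis, natural log) of the named loci whose standard error was no more than 2, with 95% intervals from counting error, in red where the locus holds Alu-like sequence, orange where it is repeated without it, and blue where it holds no repeated 24-mer; the dashed and dotted lines mark 0.5 and 1. The blue loci lie between 1.97 for RIGI and 4.52 for NDC1, inside the range of the others, from 0.503 for SULT1B1 to 7.40 for PPP1R3B.

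In a small group of loci the sequence held no repeats at all. No repeated 24-mer was present in 31 of the 353 loci, or 8.78%, and in 48 of the shorter loci, or 7.35%. Both end sequences occurred once in hg38 for 30 of the 31, the exception being RAB13 with 2 copies of each. Their logASR went from 1.78 in GTPBP2 to 4.52 in NDC1 with a median of 2.61. For the 322 loci with repeats the median was 2.97, which includes the 14 loci with a standard error above 2. A logASR above 1 with a q below 1e-05 was reached by 14 of the 31, or 45.2%, and by 219 of the 322, or 68.0%. Over all 2016 loci this share was 60.9%. All 31 had a standard error under 1, the highest being 0.859. Their median standard error was nevertheless larger, 0.607 against 0.490 for the 322. The upper bound on the smallest read count had a median of 10 for the 31 and 16 for the 322. The 31 loci are therefore not the better measured, which bears on the shares past a q of 1e-05. The 31 loci covered a larger share of their 3′-UTR, a median of 37.5% against 17.2%, and sat in shorter 3′-UTRs, with a median of 1510 nt against 3444 nt. They lay nearer to both the transcript end, at a median of 286 nt against 918 nt, and the stop codon, at 223 nt against 1419 nt, and their midpoint was at a median of 36.0% against 56.8% of the way to the transcript end. Their surroundings were also poor in repeats: the remaining 3′-UTR had a median of 0% repeated bases compared with 8.11% for loci with repeats. Of the 31 loci, 22 lay wholly in the 3′-UTR, or 71.0%, against 314 of the 322, or 97.5%. The rest of either group also held coding sequence.

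Most of these 31 loci had a gene on the other strand that ends shortly before the locus. Such a gene is convergent: it is transcribed towards the gene of the locus, on the strand of the antisense reads, and its 3′ end lies upstream of the antisense signal. GENCODE 44 has a convergent gene that ends within 10 kb of the locus in 28 of the 31 loci, or 90.3%, and in 115 of the 322 loci with repeats, or 35.7%. The median distance was 1753 nt in the first group and 18194 nt in the second. Within 5 kb the counts were 25 of 31 and 81 of 322. In the other direction, downstream on the antisense strand, the next opposite-strand gene began within 10 kb of 9 of the 31 and 57 of the 322 loci, with median distances of 41643 and 35410 nt. Among the shorter loci the same contrast was present and smaller, at 26 of 48 without and 182 of 605 with repeated 24-mers. No test was run on these counts, which describe loci and not replicates.

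The same count was made by the length of the repeat-free sequence. A convergent gene ended within 10 kb of 28.2% of the loci whose longest repeat-free stretch was under 100 nt, 43.2% of those from 100 to 199 nt, 39.1% of those from 200 to 399 nt and 66.7% of the 54 from 400 nt. The last bin contains all 31 loci without repeats. In its other 23 loci the count was 8, or 34.8%, near the share of all loci with repeats. By the end sequences, it did so for 54 of the 72 loci with both ends unique and 89 of the other 281.

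**Figure D4:**
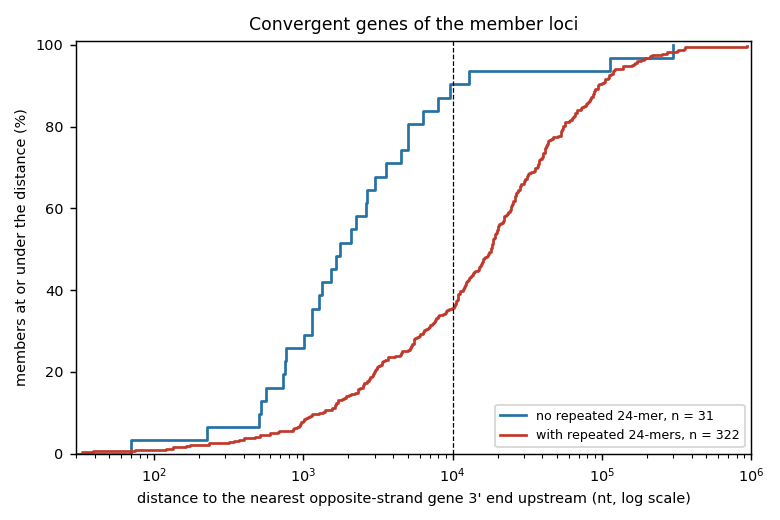
Percent of loci (y axis) whose nearest convergent gene ends at or under a given distance upstream on the antisense strand (x axis, nt, log scale), for the 31 loci without (blue) and the 322 with (red) repeated 24-mers; the dashed line marks 10 kb. At 10 kb the blue curve has reached 90.3% and the red one 35.7%.

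RNA polymerase II is known to transcribe beyond the poly(A) signal before it stops, and such RNA lies outside the annotated gene. The table holds no reads between the neighbouring gene and the locus, so the part of this transcription in the antisense signal was not tested.

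RIGI, which encodes the sensor of double-stranded RNA RIG-I, had a locus of 516 nt (chr9:32456418-32456933) with a logASR of 1.97, a standard error of 0.544 and a q of 0.000342. It starts 1649 nt past the annotated end of ACO1, which encodes a cytosolic aconitase that is also the iron-regulatory protein IRP1. ACO1 itself has a locus in its 3′-UTR, of 511 nt with a logASR of 4.70 and a standard error of 0.484, and the nearest convergent gene of that locus is RIGI, 3017 nt upstream. The 2 genes thus face each other with antisense signal in both 3′-UTRs. The same held for XPA and NCBP1, a nucleotide excision repair protein and a subunit of the nuclear cap-binding complex. The XPA locus had a logASR of 2.38 with a standard error of 0.765 at 1323 nt from the end of NCBP1, and that of NCBP1 had 2.12 with a standard error of 0.344 at 1656 nt from the end of XPA. In the third such pair, BAZ2A, a subunit of the chromatin remodelling complex NoRC, had 2.49 with a standard error of 0.451 at 70 nt from the end of RBMS2, whose own locus had 2.04 with a standard error of 0.275. In each pair the locus of 1 gene was free of repeated 24-mers and that of the other was 56.0% to 78.3% repeated. Of the 143 loci with a convergent gene within 10 kb, the convergent gene had a locus of its own in the table in 12 and was among the 353 in 6, which are these 3 pairs counted from either side. The table covers 1805 transcripts, and the share of all annotated genes with a locus was not counted. Neither the 12 nor the 6 is therefore read as an excess. The pairs were chosen after their values were seen.

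SBNO2, a homologue of Drosophila strawberry notch, had a locus of 511 nt (chr19:1107924-1108434), in part coding sequence, with a logASR of 3.87 and a standard error of 0.403. It lies 1133 nt past the end of GPX4, the enzyme that reduces lipid hydroperoxides and guards cells against ferroptosis. PDCD11, a factor of ribosomal RNA processing, had a logASR of 3.28 with a standard error of 0.619, 764 nt past the end of CALHM2. ABCC3, an exporter of organic anions, had 3.07 with a standard error of 0.615, 1144 nt past the end of ANKRD40. METAP1, which removes the initiator methionine, had 3.09 with a standard error of 0.585, and CUL1, the scaffold of SCF ubiquitin ligases, had 2.16 with a standard error of 0.622, 6321 nt past the end of EZH2, the methyltransferase of histone H3 lysine 27. RAB13, a small GTPase of vesicle traffic, had 3.48 with a standard error of 0.841. Among these the convergent gene was protein-coding except for METAP1 and RAB13, which face lncRNAs. Over the 28 loci the nearest convergent gene was protein-coding in 24 and a lncRNA in 4.

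The genes that face the other loci without repeats include RPL5, a ribosomal protein gene that ends 732 nt before the DIPK1A locus, RACK1, a ribosome-associated protein gene that ends 1277 nt before that of TRIM41, and the snoRNA host genes SNHG12 and SNHG25, 504 nt before TRNAU1AP and 755 nt before TEX2. SMC4, a condensin subunit, ends 558 nt before the TRIM59 locus, and EIF3A, a subunit of an initiation factor, 2682 nt before that of NANOS1. The levels of these genes were not measured here, and the genes of this paragraph were chosen after their values were seen. The TEX2 locus was the longest without repeats, with 1256 nt and a logASR of 2.42 with a standard error of 0.272. GTPBP2, a factor of ribosome rescue, had a locus 227 nt past the end of POLH, which encodes a translesion DNA polymerase.

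**Figure D5:**
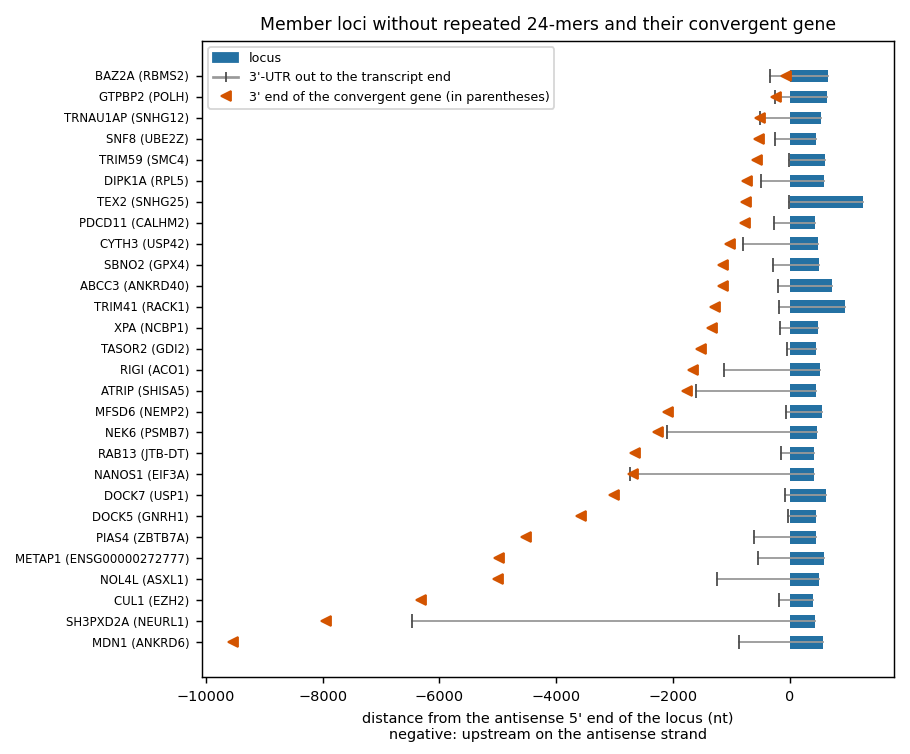
The 28 loci without repeated 24-mers that have a convergent gene within 10 kb, 1 per row, with the locus (blue bar) from its antisense 5′ end at 0, the 3′-UTR out to the transcript end (grey line, tick at its end, drawn without introns) and the 3′ end of the convergent gene named in parentheses (orange triangle); the x axis is in nt and negative values are upstream on the antisense strand. The distances go from 70 nt for RBMS2 at BAZ2A to 9530 nt for ANKRD6 at MDN1.

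NDC1, PHF6 and PRDM4 were the 3 loci without repeats and without such a neighbour, of which PHF6 and PRDM4 were chosen after their values were seen. NDC1 encodes a transmembrane nucleoporin, and its locus of 437 nt (chr1:53767082-53767518) had the largest logASR of the 31, 4.52, with a standard error of 0.721. All 414 of its 24-mers occur once in hg38, and the nearest convergent gene, DMRTB1, ends 299594 nt away. PHF6, a chromatin protein, had a logASR of 2.91 with a standard error of 0.806, and the nearest convergent gene was at 113706 nt. PRDM4, a zinc finger transcription factor, had 2.74 with a standard error of 0.859 and a processed pseudogene 12924 nt away. These 3 loci thus had neither a repeated 24-mer nor an annotated convergent gene that ends within 10 kb.

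The poly(A) signals AATAAA and ATTAAA, where cleavage of a transcript is directed, were searched on both strands. At least 1 lay on the antisense strand of 18 of the 31 loci without repeats, or 58.1%, close to the 55.1% of 500-nt windows along the 3′-UTRs that held one there. It lay on the antisense strand of 112 of the 322 loci with repeats, or 34.8%. On the mRNA strand, 16 of the 31 and 149 of the 322 loci held at least 1, or 51.6% and 46.3%, against 46.6% of the windows. The windows include the loci, whose median length was 487 nt without and 538 nt with repeats. The first AATAAA of the antisense strand is shown for 5 loci without repeats, DIPK1A and TASOR2 chosen after their values were seen, in capitals, to show what such a strand reads like in sequence without repeated 24-mers.
RIGI, chr9:32456559-32456588, plus strand: agaggaggactcAATAAAaaaagactagaa
NDC1, chr1:53767253-53767282, plus strand: agcatgatacaaAATAAAttcatagatgtc
PDCD11, chr10:103445723-103445752, minus strand: gttggtactgaaAATAAAgcaagcgaagag
DIPK1A, chr1:92842743-92842772, plus strand: ccatttttagtcAATAAAattggtgtactg
TASOR2, chr10:5763588-5763617, minus strand: ttcaatatcataAATAAAtgattatttctt

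A further 30 loci held repeated 24-mers but no Alu-like sequence, with a median of 70.7% repeated bases and a median logASR of 2.60. They include NNT, ODF2L and SULT1B1, and also ORC4, chosen after its values were seen, which encodes a subunit of the origin recognition complex. All 936 nt of the ORC4 locus lie in repeated 24-mers, it begins 33 nt past the end of ACVR2A, and its logASR of 1.66 had the smallest standard error of the 353 loci, 0.0943. A convergent gene ended within 10 kb of 7 of these 30 loci, or 23.3%, against 35.7% of all loci with repeats. FANCM, a DNA translocase of the Fanconi anaemia pathway, belonged to the same class with 13.3% repeated bases, and a logASR of 3.81 with a standard error of 0.808.

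The host genes span many cellular roles. The groups in this paragraph were drawn up from the names of the 353 genes, so that they describe the loci and are not evidence of an enrichment, and ATRIP, NCL, RPS24, PGK1, NUP43 and NUP93 were chosen after their values were seen. Past the GRO-seq thresholds were 97.4% of all 2016 loci, and past the stricter logASR of 1 with q of 1e-05 were 60.9% of them and 66.0% of the 353, against which the counts of these small groups are to be read. Of 12 genes of DNA replication and repair, all were past the GRO-seq thresholds and 7 past the stricter values, both near these shares. A convergent gene ended within 10 kb of 8 of the 12, against 40.5% of the 353. Among the 8 was ATRIP, the partner of the checkpoint kinase ATR, 1753 nt past the end of SHISA5. Of 13 genes of the ribosome and its assembly, 10 were past the stricter values, with a median logASR of 3.28. NCL, the nucleolar protein nucleolin, had 4.92 with a standard error of 0.452, and RPS24, a protein of the small ribosomal subunit, had 4.78 with a standard error of 0.581. All 12 genes of metabolism and redox balance were past the stricter values, with a median logASR of 4.28. This group does not hold every enzyme among the 353. It leaves out SULT1B1, with a logASR of 0.503, and ADI1 and INMT, which missed the GRO-seq thresholds. The count therefore depends on which genes were placed in the group. PGK1, a kinase of glycolysis, had 4.86 with a standard error of 0.534 at 475 nt from the end of TAF9B. The 8 genes of pre-mRNA splicing had a median logASR of 3.21. Alu-like sequence was in 7 of them, against 82.7% of the 353, and 1 had a convergent gene within 10 kb, against 40.5%. For the 6 genes of innate immunity, only TRIM56 was past the stricter values, and the median of the 5 with a usable standard error was 1.97. All 6 genes of the nuclear pore and nuclear transport were past them, from 1.66 in NUP43 to 4.54 in NUP93.

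Lists of genes linked to the study's subject were also read, beside the 353 of all 2016 loci that met the criteria. The counts are small and are not read as an enrichment or a lack. Of 30 genes of the NRF2 response and ferroptosis, 7 had any locus in the table and 2 were among the 353. GCLM, the modifier subunit of the enzyme that starts glutathione synthesis, had a logASR of 4.31 with a standard error of 0.622 over 729 nt (chr1:93887029-93887757), with 2 units in mRNA orientation at either side of a repeat-free stretch of 190 nt. GSR, which reduces glutathione, had 3.78 with a standard error of 0.811. Of 26 genes that handle double-stranded RNA, 4 had a locus and only RIGI was among the 353. Of 12 genes known for inverted Alu repeats in their 3′-UTR, 9 had a locus and 2 were among the 353, AHR and MDM4. MDM4, an inhibitor of p53, had 1 unit in each orientation within 685 nt and a logASR of 2.07 with a standard error of 0.263. AHR, the receptor of aromatic hydrocarbons, had 1 inverted unit and a logASR of 1.64 with a standard error of 0.368. Of 27 genes of apoptosis, 8 had a locus and CASP9, CFLAR and TNFRSF10A were among the 353. CASP9, the initiator caspase of the apoptosome, had 2.45 with a standard error of 0.643, 318 nt past the end of CELA2B. Of a list of 41 genes of DNA repair, 12 had a locus and FANCM alone was among the 353. That list is not complete, since XPA, RAD23B and ATRIP, which are also among the 353, were not on it.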

How the data were processed

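GRO-seq reads of 2 biological replicates of MDA-MB-231 cells were processed by the authors with cutadapt 1.18 and Bowtie2 2.3.5, and mapped to 1 isoform per gene, that with the longest coding sequence. Antisense reads were counted in windows of 500 nt with a step of 250 nt, tested by logistic regression, merged and trimmed to the first and last read. The authors deposited the logASR as the natural log of the resulting odds ratio, with the p-value of the regression (P) and its Benjamini-Hochberg adjustment (q). They belong to the authors' own comparison and were used here like the values of a peak list, as pooled over both replicates, with no value per sample.

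Positions along transcripts were taken to be 0-based and transferred to hg38 through GENCODE 44, whereas the paper names an earlier release. The standard error is logASR divided by the normal quantile of P, as in a Wald test, and bounds the smallest of the 4 read counts. Copies of 24-mers were counted on 24 chromosomes of hg38, and 7SL RNA was aligned with BLAST 2.17.0 at an e-value of 1e-05. Distances run from the antisense 5′ end of the locus to the nearest annotated end of an opposite-strand gene upstream. Sequences come from the GENCODE 44 transcripts of hg38. Python 3.11.15, numpy 2.4.6, pandas 2.3.3, scipy 1.17.1, numba 0.67.0 and matplotlib 3.10.9 were used. On simulated data, 498 of 498 standard errors, 300 of 300 placements, 100 of 100 copy numbers and 200 of 200 planted 7SL stretches were recovered.

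The criteria for the loci, the gene lists and the alternatives were chosen with earlier results of these data known. Loci named in the text were the 8 largest and 4 smallest logASR with a q below 1e-05 and a standard error at or under 2, the 5 longest, the 6 with the least repeated sequence, the 3 with the most Alu-like units, those at the 400-nt threshold and all members of the gene lists, and others are marked. Some sequences and 1 neighbouring gene are not reported here.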

Additional observations from a re-analysis of the deposited data

How the results depend on the processing

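Of 40 alternative settings tried over 11 results, 36 moved the value by less than 1.5 times or, for the median logASR, by less than the median standard error. The number of loci fell from 353 to 220 with a minimum of 500 nt, and to 226 when opposite-strand genes were kept at least 5 kb away. The count above a logASR of 1 with q below 1e-05 fell from 233 to 144 with a Bonferroni correction, which is stricter by construction. The share of loci without a repeated 24-mer that had a convergent gene within 10 kb went from 90.3% to 60%, or 3 of 5, with the 5 kb margin, which by construction takes out genes that end nearer than that, compared with 13.1% of 221 loci with repeats. Under the remaining settings for this share, all added after seeing the data (protein-coding genes only, 5 or 20 kb, at least 2 or 100 copies, 32-mers, loci wholly in the 3′-UTR), it stayed between 80.6% and 93.5%.

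No paired analysis was possible because the table has no column per replicate, and for the same reason leaving out a replicate was not possible. Depth limits single loci: 42 of the 353 had at most 4 reads in their smallest count or a standard error above 2. Gene ends and exons are those of GENCODE 44, so a gene end changed between releases moves a distance.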

Other observations

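In 5 loci the interval of the locus extends across an exon junction of the mRNA. Whether single reads cross the junction was not tested. In NEK6, a mitotic kinase, 90 nt lie before and 375 nt after an intron of 3014 nt. In PTMA, which encodes prothymosin alpha, 64 and 486 nt lie around an intron of 287 nt, and in RAB13, 46 and 377 nt around one of 214 nt. The pieces before the junction were only 2 nt in TRNAU1AP and 3 nt in KRIT1. The antisense 3′ end sequence of the KRIT1 locus spans the junction and occurs nowhere in hg38 as 1 piece. These loci were chosen after their values were seen.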
